A study of Homo sapiens with 16 samples.

Results

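The p38 kinase cascade is described here through 10 genes: MAP3K5, MAP2K3, MAP2K6, MAP2K4, MAPK14, MAPK13, MAPK12, MAPK11, MAPKAPK2 and MAPKAPK3. They were taken by gene symbol from a table of 57500 genes, and all 10 had enough reads to be among the 15566 genes tested. The set was selected on a measured value: it was chosen by the low MAP2K6 count in cells whose hairpin against AKAP2 was switched on, with its pathway partners added. Values of the members in that contrast, and in the difference of it from the control line, are therefore given as a description with no test. Comparisons between the lines share the shAKAP2 libraries with that contrast, so their p-values are not independent of the choice.

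The cells were MDA-MB-231, a human triple-negative breast cancer line, and the measurement was sequencing of polyadenylated RNA. They carried a short hairpin RNA that doxycycline switches on, and the 16 libraries fell into 4 groups of 4: shAKAP2 with doxycycline, shAKAP2 without it, shScramble (a scrambled control hairpin) with doxycycline, and shScramble without it. AKAP2 encodes a scaffold protein that tethers protein kinase A. Cells with doxycycline are called induced below and cells without it uninduced. The sources used here give no dose or duration of doxycycline, no hairpin sequence and no word on whether each line was a clone or a pool. Replicates are named biological in the labels, but whether they were separate cultures is not said, so a p-value here reflects only library-to-library spread, which may be technical.

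The p38 kinases respond to stress, cytokines and growth factor signals. An upstream kinase such as ASK1 activates a MAP2K, the MAP2K phosphorylates p38 on its activation loop, and p38 then activates effector kinases such as MK2 and MK3, which act on the stability of AU-rich mRNAs and on the small heat shock protein HSP27. In breast cancer cells the pathway is known for links to motility, invasion and stress survival. Activity of the kinases depends on phosphorylation, which was not measured; the values below are transcript levels.

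Total counts per library ranged from 24482997 to 37472525. The targeted gene, AKAP2, had 3, 0, 1 and 0 counts in induced shAKAP2 libraries, against 42, 36, 37 and 53 in uninduced ones. It fell to 0.0403 ± 0.0583 CPM (reads of a gene scaled to a common library size) in induced shAKAP2 cells, against 1.42 ± 0.0272 CPM in uninduced shAKAP2 cells (SD, n = 4 each; log2 fold change -5.06, SE 0.577, adjusted p = 1.25e-06), and 85.8% of its exon bases are also exon of PALM2-AKAP2 on the same strand, so the count of either gene alone is uncertain. VIM, CD44, AXL and PLAU, which mark MDA-MB-231 cells, had high counts in every library (summed with SPARC, 4365 to 4638 CPM in induced shAKAP2, 4745 to 5164 CPM in uninduced shAKAP2, 3852 to 4914 CPM in induced shScramble and 3926 to 4331 CPM in uninduced shScramble libraries), although SPARC itself had few reads, and the luminal genes ESR1, PGR and FOXA1 had at most 3 counts. The luminal genes KRT19, MUC1, GATA3, EPCAM and CDH1 had reads in every library, with up to 9153, 770, 706, 602 and 62 counts. The replicate 1 libraries of shScramble stood apart: their median correlation with their own group was 0.975 induced and 0.976 uninduced, against 0.985 to 0.988 for the other 14 libraries. Mitochondrially encoded genes took 1.02% to 2.04% of counts in induced shAKAP2 libraries, 1.86% to 2.38% in uninduced shAKAP2, 2.2% to 3.02% in induced shScramble and 2.41% to 3.62% in uninduced shScramble libraries. In bulk RNA, fewer cells of a kind and less RNA per cell cannot be told apart.

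At the MAP2K step the cascade has a major and a minor kinase gene, and they stood in opposite directions in induced shAKAP2 cells. MAP2K6 (ENSG00000108984; GRCh38 chr17:69414698-69553861, plus strand) encodes MKK6, a dual-specificity kinase that activates p38. In replicate order it had 4, 9, 10 and 8 counts in induced shAKAP2 libraries, against 56, 38, 66 and 79 in uninduced ones. It had 99, 67, 55 and 113 counts in induced shScramble libraries, against 127, 97, 50 and 42 in uninduced ones. Every induced shAKAP2 library lay below every other library, and the other 3 groups overlapped. As levels these are 0.291 ± 0.0907 CPM in induced shAKAP2, 2.01 ± 0.443 CPM in uninduced shAKAP2, 2.84 ± 0.794 CPM in induced shScramble and 2.56 ± 1.08 CPM in uninduced shScramble cells (SD, n = 4 each).

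For MAP2K6 the log2 fold change was -2.76 (SE 0.366) for induced against uninduced shAKAP2 cells, which left 14.8% of the uninduced level. It was -3.26 (SE 0.363) for shAKAP2 against shScramble with doxycycline and -0.35 (SE 0.298) without it. These are descriptions, since MAP2K6 was chosen for its level in the shAKAP2 libraries. In the shScramble line, whose libraries did not choose it, the log2 fold change with doxycycline was 0.15 (SE 0.294, adjusted p = 0.946). The whole measurement in induced shAKAP2 cells rests on 31 reads in 4 libraries.

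MAP2K3 (ENSG00000034152; GRCh38 chr17:21284672-21315240, plus strand) encodes MKK3, the other kinase dedicated to p38. It had 120.4, 124, 134 and 128 CPM in induced shAKAP2 libraries, against 89.4, 86.7, 90.3 and 81.5 CPM in uninduced ones. It had 71.8, 78.5, 88.2 and 86.4 CPM in induced shScramble libraries, against 68.9, 74.9, 80.2 and 72.4 CPM in uninduced ones. The induced shAKAP2 libraries were the 4 highest of all 16, with no overlap, whereas the shScramble groups overlapped. The log2 fold change was 0.54 (SE 0.0721) with doxycycline in shAKAP2 cells and 0.13 (SE 0.0722, adjusted p = 0.611) in shScramble cells.

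Between lines, MAP2K3 was higher in shAKAP2 than in shScramble cells with doxycycline (log2 fold change 0.64, SE 0.0722, adjusted p = 6.6e-07), and to a smaller extent without it (0.23, SE 0.0722, adjusted p = 0.0319). Both line comparisons share the shAKAP2 libraries with the contrast behind the choice of the set. The call without doxycycline was lost when any of 6 libraries was left out, namely uninduced shAKAP2 replicate 1, 2 or 3 or uninduced shScramble replicate 1, 2 or 4 (adjusted p 0.0586 to 0.0865), but had an adjusted p of 0.014 without both shScramble replicate 1 libraries.

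MAP2K4 (GRCh38 chr17:12020824-12143830, plus strand) encodes MKK4, which acts mainly on JNK and can also phosphorylate p38. Its level was 82.2 ± 4.83 CPM in induced against 93.7 ± 0.878 CPM in uninduced shAKAP2 cells, and 88.4 ± 1.48 CPM in induced against 102 ± 5.94 CPM in uninduced shScramble cells (SD, n = 4 each). Within each line every induced library was below every uninduced one. The log2 fold change with doxycycline was -0.19 (SE 0.0607) in shAKAP2 and -0.21 (SE 0.0606, adjusted p = 0.135) in shScramble cells, so the induced libraries of both lines were lower by about the same amount. In shScramble cells it passed with DESeq2 (adjusted p = 0.0381) and without both replicate 1 libraries (0.0379).

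Levels can be set between genes only per length, and per kb of annotated exon MAP2K6 was the lowest of the 10 genes in all 4 groups. Of the summed MAP2K3 and MAP2K6 level in CPM per kb, MAP2K6 made up 0.0518% in induced shAKAP2, 0.522% in uninduced shAKAP2, 0.804% in induced shScramble and 0.788% in uninduced shScramble cells. The sum itself was 33.5 ± 1.51 CPM per kb in induced against 23.1 ± 1.04 CPM per kb in uninduced shAKAP2 cells (SD, n = 4 each). MAP2K3 made up 98.8% or more of the pair in every library, and the summed level was higher where MAP2K6 was lowest. MAP2K6 has a long 3' untranslated region (3' UTR), and with the length of the longest coding transcript its share in induced shAKAP2 cells came to 0.0392%.

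**Figure D1:**
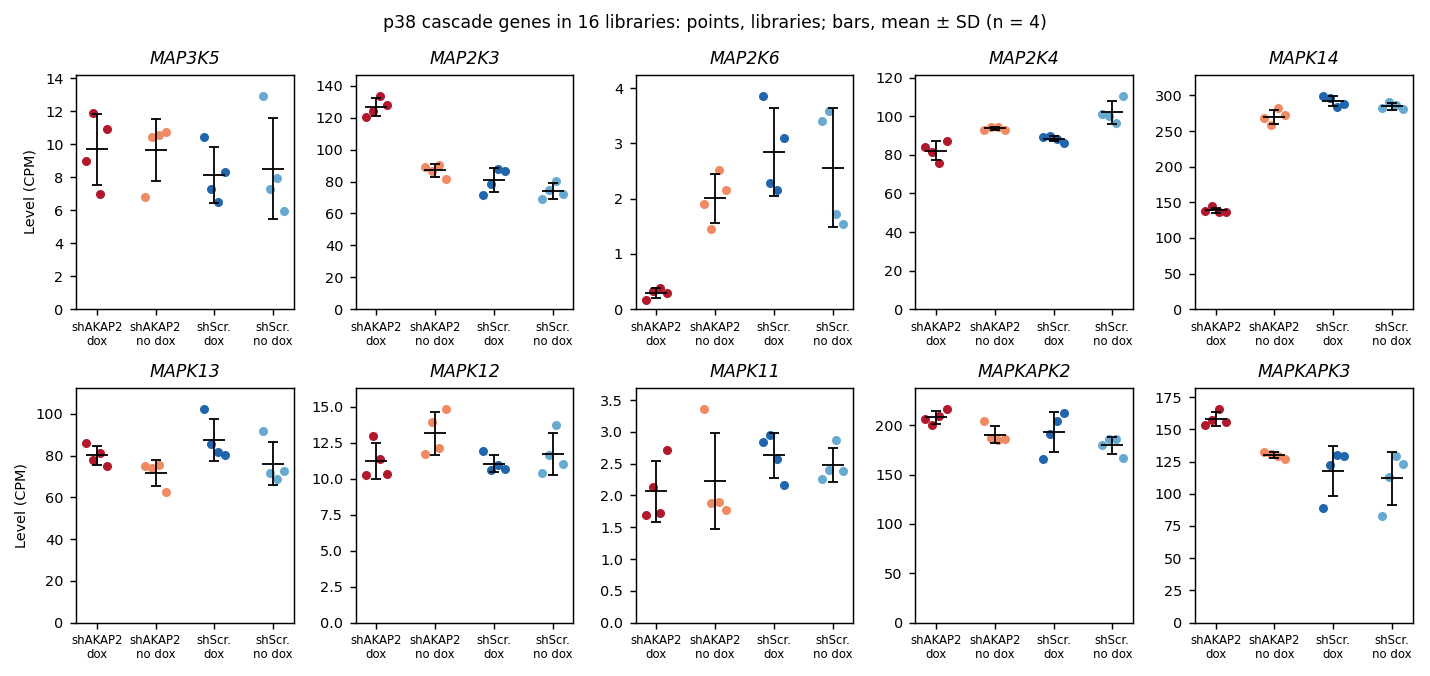
Level of each of the 10 genes in CPM in 16 libraries, by group (induced shAKAP2, uninduced shAKAP2, induced shScramble, uninduced shScramble); points are libraries, bars are mean ± SD (n = 4), and each axis starts at 0 with its own scale. MAP2K6 and MAPK14 have their 4 lowest libraries in induced shAKAP2 cells, where MAP2K3 and MAPKAPK3 have their 4 highest.

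Among the 4 p38 genes, MAPK14 stood apart from its family. MAPK14 (ENSG00000112062; GRCh38 chr6:36027677-36111236, plus strand) encodes p38 alpha, the broadly expressed isoform. It had 138, 144, 136 and 137 CPM in induced shAKAP2 libraries, against 268, 258, 282 and 273 CPM in uninduced ones. It had 299, 297, 284 and 288 CPM in induced shScramble libraries, against 282, 291, 286 and 280.5 CPM in uninduced ones. The 4 induced shAKAP2 libraries lay close together and far below the remaining 12, which spanned 258 to 299 CPM.

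In shAKAP2 cells the log2 fold change of MAPK14 with doxycycline was -0.96 (SE 0.0521), which left 51.4% of the uninduced level. In shScramble cells it was 0.04 (SE 0.0515, adjusted p = 0.913), with a 95% interval of -0.08 to 0.15. The difference between these effects was -0.996 (SE 0.0731). MAPK14 was lower in shAKAP2 than in shScramble cells with doxycycline (-1.07, SE 0.0522, adjusted p = 3.34e-12), while without doxycycline the difference of -0.08 (SE 0.0515) did not pass (adjusted p = 0.325). Both line comparisons share shAKAP2 libraries with the contrast behind the choice of the set.

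MAPK14 was also the only member whose annotated 3' UTR holds the 7-letter word GAACACA. An earlier analysis of these data had found this word more often in the 3' UTRs of genes that were lower in induced shAKAP2 cells, so its presence here is no independent support. The word was searched on the transcript strand of GENCODE 3' UTRs, and 14.1% of the 12828 tested genes with a 3' UTR hold it, or 20.5% of those with a 3' UTR of about the length of that of MAPK14 (2789 bases). In MAPK14 it starts 1110 bases after the stop codon. The 3' UTR of MAP2K6, 12108 bases long, does not hold it, although 58.1% of genes with 3' UTRs of like length do. The windows below, 5' to 3' on the transcript strand with the word in capitals, are those of MAPK14, of the targeted gene AKAP2 and of TAOK1, MAP3K20, MEF2A and MAP2K1, kinases and a substrate of neighbouring steps described further on. PPARGC1A, MMP1, IER3, MAPK9, NUMB and OAS2, also described further on, hold the word as well. Among genes with 3' UTRs of like length the word is held by 47.6% for TAOK1, 33.1% for MAP3K20, 26.8% for MEF2A and 12.6% for MAP2K1. That share is 27.4% for AKAP2, 26.8% for PPARGC1A, 4.33% for MMP1, 8.6% for IER3, 24.1% for MAPK9, 11.9% for NUMB and 18.2% for OAS2. TAOK3, MAP3K6, HSPB1, MAPK7, MAP2K2, MAPK8, MAP2K7, MMP3, VEGFA, DUSP10, TAB3 and MAPK8IP1, which fell in induced shAKAP2 cells, do not hold it. For these the share among genes with 3' UTRs of like length runs from 0.717% for HSPB1 to 29.2% for MAPK8. It is at most 3.33% for HSPB1, MAP3K6, MAP2K2, MAPK7 and MMP3, so absence of the word from these says little.
MAPK14, GRCh38 chr6:36109545-36109574, plus strand: ctattctgtgttGAACACAattgatacttc
AKAP2, GRCh38 chr9:110169246-110169275, plus strand: tgcagtttatgaGAACACAttttcacagtt
TAOK1, GRCh38 chr17:29543603-29543632, plus strand: gcagaaatccatGAACACAttgcttctcgg
MAP3K20, GRCh38 chr2:173223766-173223795, plus strand: gtacaaatacatGAACACAgcctgtctgtg
MEF2A, first site, GRCh38 chr15:99713634-99713663, plus strand: ttcactacttttGAACACAttctgctatga
MEF2A, second site, GRCh38 chr15:99715553-99715582, plus strand: acgcccacgtgtGAACACAcccacatccac
MAP2K1, GRCh38 chr15:66490723-66490752, plus strand: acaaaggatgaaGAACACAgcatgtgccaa

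The letters around the word differ between these windows. A match is a description of the sequence and does not show a site at which anything binds.

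MAPK13 (p38 delta) lies next to MAPK14 on chromosome 6, with a gap of 16572 bases and no other coding gene between them, and its groups overlapped. It had 80.2 ± 4.67 CPM in induced against 71.9 ± 6.23 CPM in uninduced shAKAP2 cells, and 87.6 ± 10.1 CPM in induced against 76.2 ± 10.5 CPM in uninduced shScramble cells (SD, n = 4 each). The log2 fold change was 0.16 (SE 0.0957) in shAKAP2 and 0.20 (SE 0.0955, adjusted p = 0.534) in shScramble cells, and the groups of each line overlapped. MAPK13 in uninduced shScramble cells was highest in replicate 1, one of the libraries that stood apart, at 91.8 CPM against 68.9 to 72.6 CPM in the others.

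MAPK12 (p38 gamma) and MAPK11 (p38 beta) are neighbours on chromosome 22, 1887 bases apart, and were low. MAPK12 had 11.2 ± 1.28 CPM in induced and 13.1 ± 1.49 CPM in uninduced shAKAP2 cells, against 11.04 ± 0.608 CPM in induced and 11.7 ± 1.46 CPM in uninduced shScramble cells (SD, n = 4 each). Its counts are uncertain, since 29.3% of its exon bases are also exon of HDAC10 on the same strand. MAPK11 had 2.06 ± 0.474 CPM in induced and 2.23 ± 0.755 CPM in uninduced shAKAP2 cells, against 2.64 ± 0.354 CPM in induced and 2.47 ± 0.269 CPM in uninduced shScramble cells (SD, n = 4 each). Neither differed between lines beyond the spread of the libraries: with doxycycline the log2 difference was 0.03 (SE 0.119, adjusted p = 0.893) for MAPK12 and -0.35 (SE 0.236, adjusted p = 0.258) for MAPK11, and the 95% interval for MAPK11 of -0.86 to 0.17 still covers a sizeable change.

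MAPK14 supplied most p38 transcript, and both the sum and the makeup of the family stood apart in induced shAKAP2 cells. Summed over the 4 genes, the level was 33.4 ± 0.706 CPM per kb in induced shAKAP2, 51.6 ± 1.56 in uninduced shAKAP2, 56.9 ± 2.47 in induced shScramble and 54.3 ± 1.19 in uninduced shScramble cells (SD, n = 4 each). MAPK14 made up 60.7 ± 1.03% of it in induced shAKAP2 cells, against 76.3 ± 1.59% in uninduced shAKAP2, 74.9 ± 1.62% in induced shScramble and 76.5 ± 1.94% in uninduced shScramble cells. The share of MAPK13 was 33.4 ± 1.68% in induced shAKAP2 cells, against 19.4 ± 1.52% in uninduced ones. MAPK14 was still the largest of the 4 in every library. With the length of the longest coding transcript in place of all exons, the share of MAPK14 was 62.1% in induced against 76.3% in uninduced shAKAP2 cells. By that length the share of MAPK13 was 25.0% in induced against 14.2% in uninduced shAKAP2 cells. The share of MAPK12 was 11.3% against 8.38% by that length and 3.57% against 2.71% by all exons, so the smaller shares depend on the length used.

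**Figure D2:**
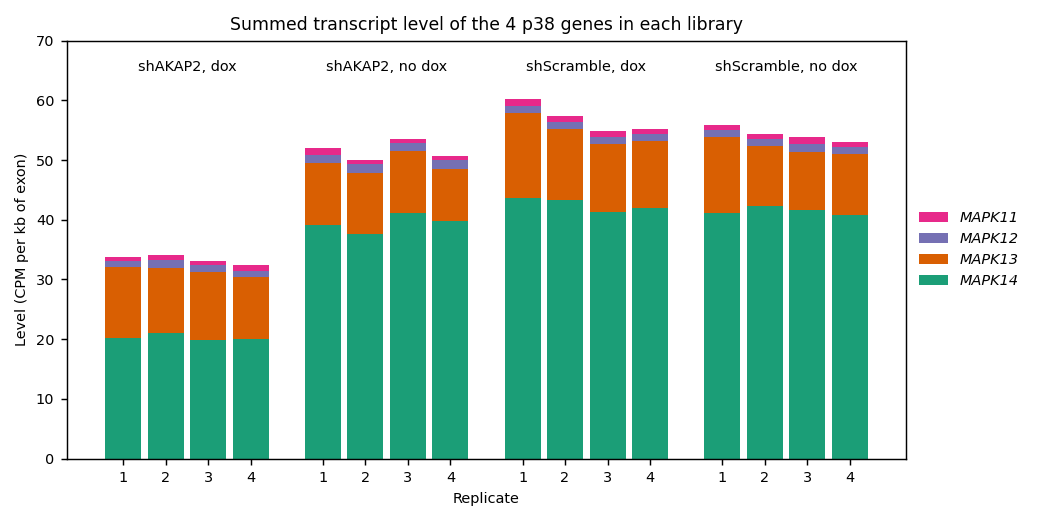
Summed level of the 4 p38 genes in CPM per kb of exon in each library, split by gene, with replicates 1 to 4 of each group side by side. The sum is 32.5 to 34.0 in induced shAKAP2 libraries and 50.1 to 60.2 in all others, and the MAPK14 segment carries most of the difference.

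The effector kinases did not follow MAPK14. MAPKAPK3, which encodes MK3, had 154, 158, 166 and 156 CPM in induced shAKAP2 libraries, against 133, 131, 129 and 127 CPM in uninduced ones. In shScramble it had 89.0, 122, 129.98 and 129 CPM in induced libraries, against 83.0, 113, 129 and 123 CPM in uninduced ones. The induced shAKAP2 libraries were the highest 4 of all, and the lowest library of each shScramble group was replicate 1. The log2 fold change with doxycycline was 0.28 (SE 0.117) in shAKAP2 and 0.07 (SE 0.117, adjusted p = 0.924) in shScramble cells. MAPKAPK3 was higher in shAKAP2 than in shScramble cells with doxycycline (0.43, SE 0.117, adjusted p = 0.00659). Without both shScramble replicate 1 libraries the difference was 0.31 (SE 0.0543, adjusted p = 1.56e-05). This line comparison shares the induced shAKAP2 libraries with the contrast behind the choice of the set. MAPKAPK3 shares 218 exon bases, 5.56% of its own, with CISH on the opposite strand.

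MAPKAPK2, which encodes MK2, the main kinase of HSP27 and of the AU-rich mRNA binding protein tristetraprolin, was the highest of the 10 genes per kb of exon in all 4 groups, though MAPK14 was above it in both shScramble groups by the length of the longest coding transcript. It had 208 ± 6.61 CPM in induced and 191 ± 8.99 CPM in uninduced shAKAP2 cells, against 193 ± 20.3 CPM in induced and 179.7 ± 8.88 CPM in uninduced shScramble cells (SD, n = 4 each). The shAKAP2 groups overlapped, because uninduced replicate 1 had 204 CPM. With doxycycline the difference between lines was 0.10 on the log2 scale (SE 0.0703, adjusted p = 0.253).

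At the top of the cascade, MAP3K5 encodes ASK1, a kinase that thioredoxin holds inactive in unstressed cells. It had 9.70 ± 2.16 CPM in induced and 9.64 ± 1.89 CPM in uninduced shAKAP2 cells, against 8.15 ± 1.71 CPM in induced and 8.53 ± 3.06 CPM in uninduced shScramble cells (SD, n = 4 each). The groups overlapped in every comparison. The log2 fold change with doxycycline was 0.01 (SE 0.223) in shAKAP2 and -0.07 (SE 0.224, adjusted p = 0.973) in shScramble cells, and its 95% interval in shScramble cells, -0.56 to 0.42, shows how little this depth and spread could resolve.

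Per kb of exon, the order in uninduced shScramble cells was MAPKAPK2, MAPK14, MAPKAPK3, MAP2K3, MAP2K4, MAPK13, MAP3K5, MAPK12, MAPK11 and MAP2K6. MAPK14 stood in rank 2 in the 3 other groups and in rank 4 in induced shAKAP2 cells, below MAPKAPK3 and MAP2K3. With the longest coding transcript as the length, MAP3K5 and MAPK12 changed places in every group, MAPK14 and MAPKAPK2 did so in both shScramble groups, and MAP2K3 and MAPKAPK3 did so in induced shAKAP2 cells.

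Counted over the set, 4 of the 10 members passed an adjusted p under 0.05 in the shAKAP2 doxycycline effect, 1 higher and 3 lower, where 28.3% of all genes passed, 13.1% higher and 15.2% lower. The groups did not overlap for 5 members, against 36.5% of all genes, 18.4% higher and 18.1% lower. In the difference between the lines' doxycycline effects 3 members passed, 1 higher and 2 lower, against 18% of all genes, 7.53% higher and 10.5% lower. Without both shScramble replicate 1 libraries the count of 4 was 7. Nothing is read from these counts, because this contrast chose the set.

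In the shScramble doxycycline effect 0 of 10 members passed by edgeR's quasi-likelihood test, against 1.08% of all genes, 0.559% higher and 0.52% lower. At an unadjusted p under 0.05 there were 2 members, MAP2K4 and MAPK13, and DESeq2 called 1 and limma-voom 0. The groups did not overlap for 1 member, MAP2K4, against 4.43% of all genes, 2.29% higher and 2.15% lower.

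Between the lines with doxycycline 4 members passed, MAP2K3 and MAPKAPK3 higher and MAPK14 and MAP2K6 lower, where 40.2% of all genes passed, 18.7% higher and 21.5% lower; without MAP2K6 it was 3 of 9. The groups did not overlap for the same 4, against 37.8% of all genes, 18.2% higher and 19.6% lower. These shares are near the background, so the number of members called says nothing particular about the set. Between the uninduced lines 1 member passed, MAP2K3, which was higher, against 18% of all genes, 8.65% higher and 9.31% lower. There the groups did not overlap for 2 members, MAP2K3 and MAP2K4, against 25.5% of all genes, 13.3% higher and 12.2% lower.

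The median log2 fold change of the members was -0.05 in the shAKAP2 doxycycline effect, 0.08 in the shScramble doxycycline effect and -0.04 between lines with doxycycline, and that of all tested genes was between -0.01 and 0.00 in each. The line comparisons and the doxycycline effects use the same libraries, so their values stand side by side and are not independent.

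**Figure D3:**
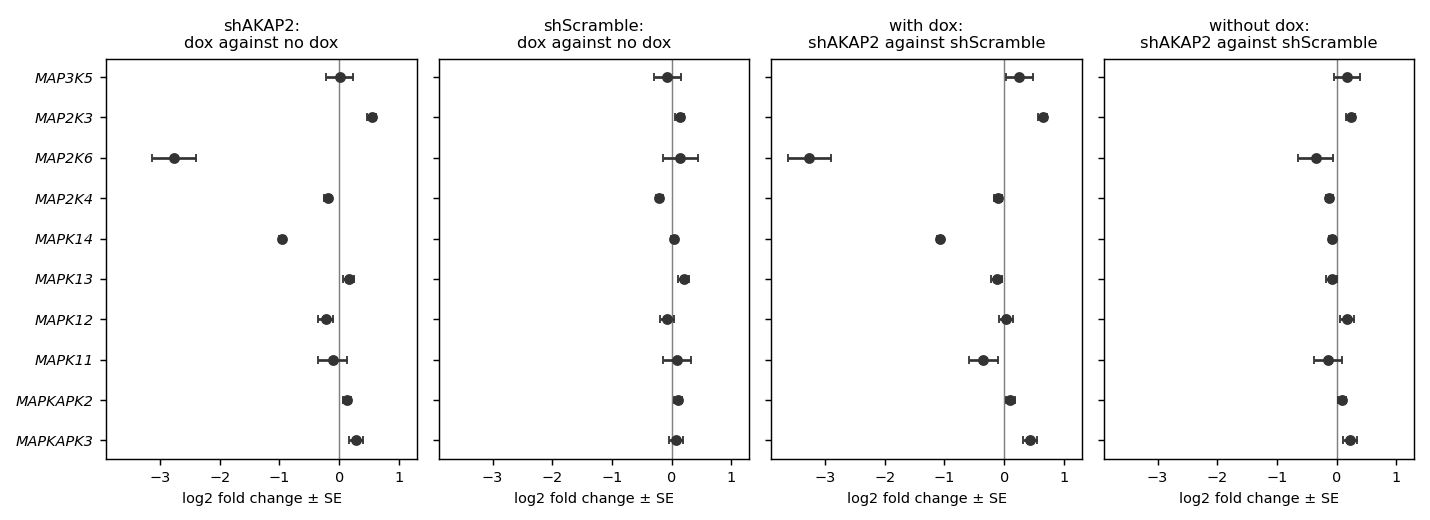
log2 fold change ± SE of the 10 genes in 4 comparisons, from left to right the doxycycline effect in shAKAP2 cells, that in shScramble cells, and shAKAP2 against shScramble in induced and in uninduced cells. MAP2K6 (-2.76) and MAPK14 (-0.96) are left of 0 in the first panel and within 0.15 of 0 in the second.

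The steps around the 10 genes were followed in 6 lists written from general knowledge, but with earlier results of these data known. Their counts in induced against uninduced shAKAP2 cells stand against 13.1% of all genes called higher and 15.2% called lower, and several lie near those shares. Of 14 upstream kinases, 2 rose and 5 fell in induced against uninduced shAKAP2 cells, with a list median of -0.08 (all genes 0.00). TAOK1, a kinase that activates MAP2Ks under DNA damage and osmotic stress, had 87.2, 64.6, 61.7 and 77.2 CPM in induced against 173, 173, 175 and 171 CPM in uninduced shAKAP2 libraries. It fell without overlap (log2 fold change -1.25, SE 0.101, adjusted p = 8.76e-09), and the difference of this effect from that in shScramble cells also passed (-1.32, SE 0.14, adjusted p = 1e-06). Without doxycycline TAOK1 was higher in shAKAP2 than in shScramble cells (0.31, SE 0.0986, adjusted p = 0.0348). With single libraries left out, the adjusted p of that line difference reached 0.086. MAP3K20, the kinase ZAK that senses stalled ribosomes, fell by 0.44 on the log2 scale (adjusted p = 6.12e-05), TAOK3 by 0.42 (adjusted p = 0.000287), MAP3K6, a relative of ASK1, by 0.73 (adjusted p = 0.000417) and MAP3K11 by 0.30 (adjusted p = 0.0113). MAP3K13 (0.33, adjusted p = 0.0189) and MAP3K3 (0.20, adjusted p = 0.0277) were the 2 that rose. That count of 2 was 0 without induced shAKAP2 replicate 3 or uninduced replicate 2, and 1 without induced replicate 1 or 4, without uninduced replicate 1 or 3 or without a filter on low counts.

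Of 17 adaptors and activators, 15 were tested, and 3 rose and 2 fell in shAKAP2 cells with doxycycline (list median 0.06). TXN, which encodes thioredoxin, the inhibitor of ASK1, rose to 491 ± 17.8 CPM in induced cells, against 360.4 ± 7.73 CPM in uninduced cells (log2 fold change 0.45, SE 0.0594, adjusted p = 8.86e-06; SD, n = 4 each). In shScramble cells TXN had 338 ± 25.3 CPM with and 369.6 ± 15.2 CPM without doxycycline, and the difference between the lines' effects passed (0.58, SE 0.084, adjusted p = 5.64e-05). The small GTPase genes CDC42 (0.25, adjusted p = 0.00575) and RAC1 (0.19, adjusted p = 0.00595) rose less; RAC1 did not pass without a filter on low counts (adjusted p = 0.0886), and 57.1% of the exon bases of CDC42 are shared with another annotated coding gene on the same strand. TAB3 (-0.29, adjusted p = 0.0297) and MAPK8IP1 (-0.38, adjusted p = 0.0421) fell. This count of 2 was 0 without induced shAKAP2 replicate 1, 2 or 3 or uninduced replicate 3 or 4, and 1 without induced replicate 4, uninduced replicate 1 or 2 or induced shScramble replicate 2.

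Downstream, 26 of 27 substrate genes were tested, and 3 rose and 6 fell (list median 0.06). MEF2A, a transcription factor that p38 phosphorylates, had 31.1, 27.1, 28.7 and 31.4 CPM in induced against 60.1, 64.0, 66.98 and 67.7 CPM in uninduced shAKAP2 libraries. It fell without overlap (log2 fold change -1.13, SE 0.0758, adjusted p = 6.1e-10), and its effect differed from that in shScramble cells (-1.23, SE 0.106, adjusted p = 5.57e-08); 11.1% of its exon bases are shared with LYSMD4. HSPB1, which encodes HSP27, fell to 56.9 ± 3.46 CPM in induced shAKAP2 cells, against 88.3 ± 2.37 CPM in uninduced ones (-0.63, SE 0.0893, adjusted p = 1.72e-05; SD, n = 4 each), and had 103 ± 15.2 CPM in induced and 102 ± 9.54 CPM in uninduced shScramble cells. PPARGC1A, a coactivator of mitochondrial genes, fell (-1.64, SE 0.33, adjusted p = 0.000949) to 1.83 ± 0.298 CPM in induced shAKAP2 cells, against 5.72 ± 1.13 CPM in uninduced ones. KRT8, MKNK1 and ZFP36L1 were the 3 that rose, with log2 fold changes of 0.40 (adjusted p = 0.000815), 0.40 (adjusted p = 0.00124) and 0.34 (adjusted p = 0.00244). That count of 3 was 5 without both shScramble replicate 1 libraries.

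Of 11 phosphatases that act on p38 or JNK, 4 rose and 3 fell (list median -0.03). DUSP16, a dual-specificity phosphatase of JNK and p38, had 24.5, 22.7, 25.2 and 27.2 CPM in induced against 12.96, 14.0, 11.3 and 11.5 CPM in uninduced shAKAP2 libraries. It rose without overlap (log2 fold change 1.00, SE 0.133, adjusted p = 8.31e-06), with a difference from the shScramble effect of 0.86 (SE 0.188, adjusted p = 0.00305). DUSP8 rose from few reads, with 23, 37, 27 and 56 counts in induced against 4, 6, 7 and 5 in uninduced shAKAP2 libraries (2.80, SE 0.647, adjusted p = 0.00251). PTPRR (1.78, adjusted p = 0.00239) and PPM1D (0.40, adjusted p = 0.00602), the p53-regulated phosphatase WIP1, also rose. Without doxycycline PTPRR was lower in shAKAP2 than in shScramble cells (-1.29, adjusted p = 0.0333), at 1.03 ± 0.582 against 2.51 ± 0.666 CPM (SD, n = 4 each). With single libraries left out, the adjusted p of that difference reached 0.099. DUSP10, a phosphatase of p38 and JNK, fell by 0.39 (adjusted p = 0.00134), PPM1B by 0.24 (adjusted p = 0.0133) and PPM1A by 0.19 (adjusted p = 0.0303); this count of 3 was 1 without induced shAKAP2 replicate 2 or without uninduced replicate 4. DUSP1, the immediate early phosphatase of p38, did not pass in shAKAP2 cells with doxycycline but was higher in shAKAP2 than in shScramble cells both with (0.78, adjusted p = 0.000137) and without doxycycline (0.84, adjusted p = 0.000377).

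The list of AU-rich mRNAs and other genes that p38 signalling is known to raise had the lowest median, -0.53, with 2 of 19 tested genes up and 5 down. MMP1, an interstitial collagenase, fell to 0.965 ± 0.34 CPM in induced shAKAP2 cells, against 14.4 ± 3.61 CPM in uninduced ones (log2 fold change -3.896, SE 0.389, adjusted p = 3.13e-06; SD, n = 4 each), and shScramble cells had 48.9 ± 12.7 CPM with and 54.7 ± 22.6 CPM without doxycycline. MMP3 (-2.62, adjusted p = 0.000209), IER3 (-0.64, adjusted p = 1.39e-05), VEGFA (-0.57, adjusted p = 2.26e-07) and PLAU (-0.36, adjusted p = 0.0194) fell as well. PLAUR, the urokinase receptor, rose to 138 ± 12 CPM, against 59.6 ± 4.21 CPM in uninduced shAKAP2 cells (1.21, SE 0.0893, adjusted p = 2.59e-09), and LIF rose by 0.34 (adjusted p = 0.00628). IER3 shares 26.5% of its exon bases with IER3-AS1. The cytokine, growth factor and prostaglandin genes IL6, CXCL8, CXCL1, CXCL2, CXCL3, PTGS2, IL1A, IL1B, TNF, CSF2, HBEGF and CCL20 did not pass. All but HBEGF had a lower mean in induced than in uninduced shAKAP2 cells. IL6 had 2.15 ± 0.604 against 5.21 ± 0.74 CPM and CXCL8 had 10.6 ± 1.8 against 17.65 ± 1.69 CPM (SD, n = 4 each). The test takes its spread from all 16 libraries, and CXCL8 had 39.1 ± 48 CPM in uninduced shScramble cells. The count of 5 that fell was 8 without uninduced shScramble replicate 1 and 10 without both shScramble replicate 1 libraries, so some genes listed as not passing were called lower there.

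For the same AU-rich mRNA list, 2 genes passed as higher and 6 as lower in the difference between the lines' doxycycline effects, where 7.53% of all genes were called higher and 10.5% lower. Between the induced lines 3 passed as higher and 10 as lower, where 18.7% of all genes were called higher and 21.5% lower. The count of 6 in the difference was 13 without uninduced shScramble replicate 1. VEGFA was lower in shAKAP2 than in shScramble cells without doxycycline too (-0.54, SE 0.0574, adjusted p = 2.6e-06), as was MMP1 (-1.93, SE 0.286, adjusted p = 0.000498), so the lines also differed in these genes in uninduced cells.

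**Figure D4:**
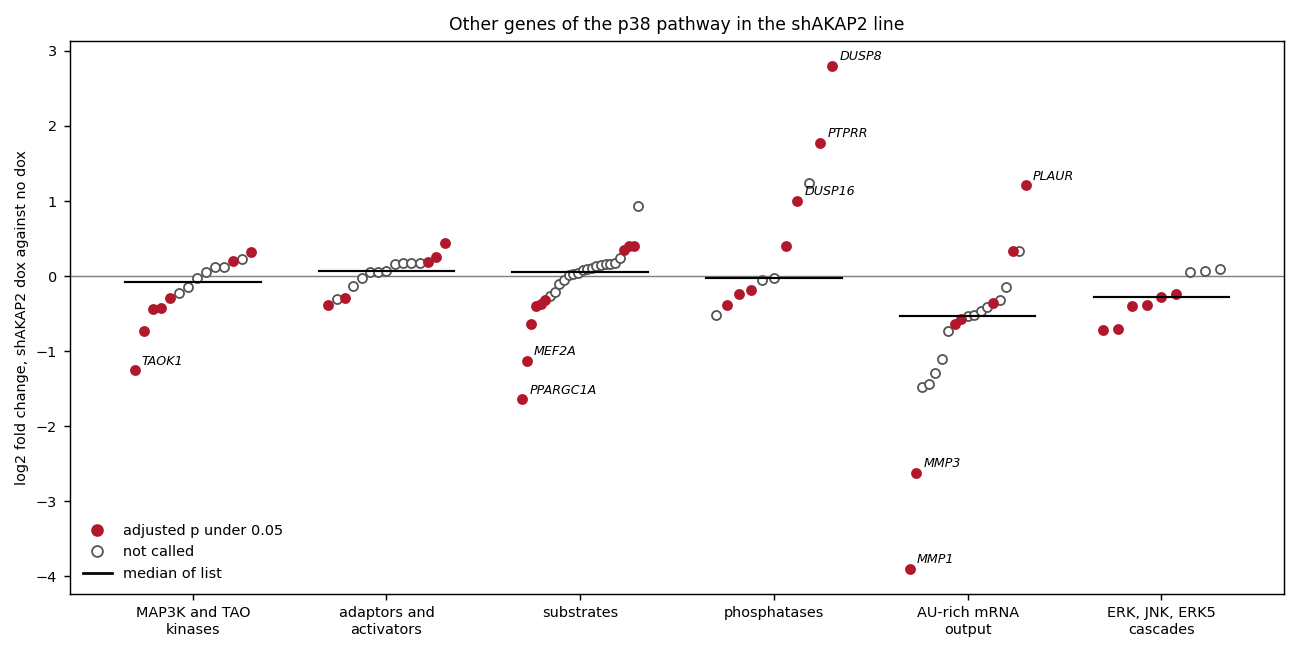
log2 fold change of each tested gene of 6 pathway lists in induced against uninduced shAKAP2 cells; filled points passed an adjusted p under 0.05, open points did not, and lines are list medians. The AU-rich mRNA list has the lowest median (-0.53), and 6 of 9 genes of the neighbouring cascades are filled below 0.

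The sister cascades were compared through 10 genes of the ERK, JNK and ERK5 modules, of which 9 were tested. In shAKAP2 cells with doxycycline 6 fell and 0 rose (list median -0.27), where 15.2% of all genes fell and 13.1% rose. None of the 9 had an unadjusted p under 0.05 in the higher direction, and DESeq2 and limma-voom called 0 higher. MAP2K1, the ERK kinase MEK1, had 51.0, 49.0, 56.3 and 53.8 CPM in induced against 89.1, 86.8, 86.6 and 83.0 CPM in uninduced shAKAP2 libraries (log2 fold change -0.72, SE 0.0637, adjusted p = 3.49e-08), with 11.5% of its exon bases shared with an annotated antisense gene. MAPK7, which encodes ERK5, fell by 0.70 (adjusted p = 4.39e-05), MAP2K2 by 0.38 (adjusted p = 7.58e-05), the JNK genes MAPK8 by 0.40 (adjusted p = 0.00195) and MAPK9 by 0.24 (adjusted p = 0.00153), and MAP2K7, a kinase of JNK, by 0.27 (adjusted p = 0.0202). In the difference from the shScramble effect 4 passed, MAP2K1 at -0.75 (adjusted p = 5.25e-06), MAPK7 at -0.75 (adjusted p = 0.00136), MAP2K2 at -0.42 (adjusted p = 0.00157) and MAPK8 at -0.58 (adjusted p = 0.00288).

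In the shScramble doxycycline effect 1.08% of all genes passed, so few calls in a list are no result about it. By edgeR's quasi-likelihood test 0 of the 14 upstream kinases, 15 adaptors, 26 substrates and 11 phosphatases passed; DESeq2 and limma-voom also called 0, and at an unadjusted p under 0.05 there were 0, 1, 2 and 1. Without both shScramble replicate 1 libraries 1 adaptor passed as lower and 2 substrates as higher. In the AU-rich mRNA list VEGFA fell (log2 fold change -0.33, SE 0.0572, adjusted p = 0.00321), while TNF (2.25, SE 0.475, adjusted p = 0.0177) and MMP3 (1.95, SE 0.433, adjusted p = 0.0269) rose from few reads. TNF had 9, 27, 20 and 28 counts in induced against 10, 4, 2 and 2 in uninduced shScramble libraries. The count of 2 that rose was 0 without induced shScramble replicate 2, 3 or 4 or uninduced replicate 2, 3 or 4, was 4 without uninduced replicate 1, and was 7 without both replicate 1 libraries. MAP2K7 fell in shScramble cells (-0.44, SE 0.0857, adjusted p = 0.00882) as it did in shAKAP2 cells, and the difference between the lines' effects of 0.17 (SE 0.121) did not pass (adjusted p = 0.376). Its call in shScramble cells was lost without induced shScramble replicate 2 (adjusted p = 0.054).

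Markers of other cell types moved with some of these groups. The summed level of 10 blood cell markers was 45.8 to 61.6 CPM in induced shAKAP2, 67.1 to 76.4 CPM in uninduced shAKAP2, 126 to 175 CPM in induced shScramble and 78.3 to 98.5 CPM in uninduced shScramble libraries. Most of it was LAPTM5. CD14, CD68, PTPRC and LYZ also had reads in every library, with up to 307, 109, 77 and 29 counts. In uninduced shScramble libraries CD53 had 0, 3, 0 and 2 counts and PTPRC 15, 2, 11 and 2. In uninduced shAKAP2 libraries CD53 had 36, 25, 26 and 23 counts and PTPRC 43, 27, 58 and 47. CD14 went the other way, with a mean of 4.35 CPM in uninduced shScramble and 1.60 CPM in uninduced shAKAP2 cells. CD3E and HBB had at most 1 count in any library. Of the 10, 7 had enough reads to be tested. In the shScramble doxycycline effect 4 of these 7 passed as higher and 0 as lower, where 0.559% of all genes were called higher and 0.52% lower. In the shAKAP2 doxycycline effect 0 passed as higher and 1 as lower, where 13.1% of all genes were called higher and 15.2% lower. The sum of 9 fibroblast markers was 19.6 to 21.8 CPM in induced shAKAP2, 21.7 to 33.6 CPM in uninduced shAKAP2, 46.7 to 70.5 CPM in induced shScramble and 25.0 to 46.7 CPM in uninduced shScramble libraries. The sum of 9 luminal markers, most of it KRT19, was 236 to 256 CPM in induced shAKAP2, 193 to 217 CPM in uninduced shAKAP2, 202 to 328.5 CPM in induced shScramble and 182 to 301 CPM in uninduced shScramble libraries. The part of these levels in the results above was not tested.

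The genes most like MAP2K6 over the 16 libraries were sought by Pearson's r of log2(CPM + 1) among 12855 genes with a mean of at least 1 CPM. NUMB (0.97), HSPB1 (0.96), ZBED6CL (0.96), SARDH (0.96) and OAS2 (0.96) had the highest r, and CBFB (-0.96) and RSL1D1 (-0.96) the lowest. These libraries are not a continuum, since the induced shAKAP2 libraries lie apart. Over the 12 other libraries r was 0.91 for NUMB, 0.79 for HSPB1, 0.77 for ZBED6CL, 0.84 for SARDH, 0.76 for OAS2, -0.80 for CBFB and -0.90 for RSL1D1. Of the members, MAPK14 was nearest to MAP2K6, with r of 0.93 over all 16 libraries and 0.65 over the 12, and MAP2K3 (-0.90 and -0.42) and MAPKAPK3 (-0.83 and -0.70) were the farthest. For other members r depended on the induced shAKAP2 libraries: MAP2K4 had 0.56 and -0.24, MAPK12 0.08 and -0.41, and MAPK13 0.13 and 0.59. The libraries share depth and scaling, and 1 of the 5 highest stayed among the top 5 by Spearman's rho and 2 stayed without both shScramble replicate 1 libraries.

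**Figure D5:**
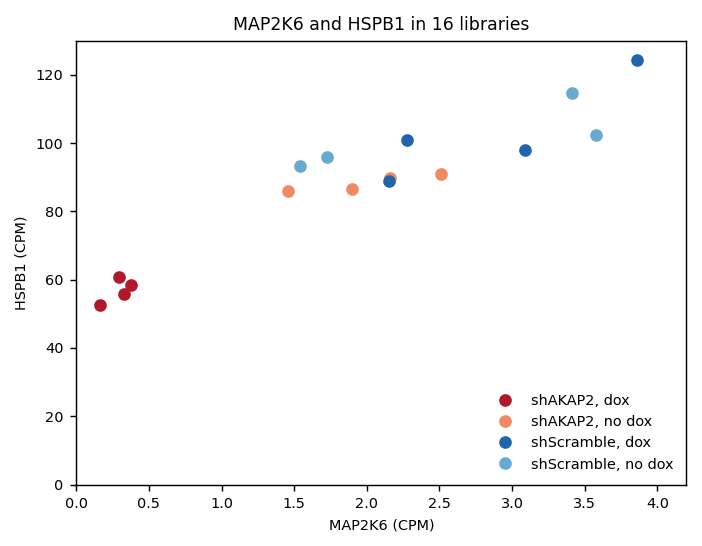
Level of HSPB1 against that of MAP2K6 in CPM, one point per library, coloured by group. The 4 induced shAKAP2 libraries, at 52.7 to 60.8 CPM of HSPB1 and under 0.4 CPM of MAP2K6, lie apart from the 12 others, at 86.0 to 124 CPM of HSPB1.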

How the data were processed

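Polyadenylated RNA of 16 libraries was measured. The submitters' processing notes name GRCh38, featureCounts from Subread 1.5.2 and STAR 2.5.2b; for the annotation and any use of strand the sources used here give nothing, so genes overlapping on opposite strands cannot be told apart. The authors deposited raw counts per gene, and every column was matched to its library by name. Positions, exon lengths and 3' UTRs come from GENCODE release 29, in which 56898 of 57500 identifiers were found.

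Genes were filtered with filterByExpr and scaled by TMM, and edgeR 4.0.16 (limma 3.58.1, R 4.3.3) fitted a robust quasi-likelihood model with a mean per group to all 16 libraries (12 residual degrees of freedom, biological coefficient of variation 14.4%). Adjusted p-values come from that edgeR test, with Benjamini-Hochberg adjustment over all 15566 genes, except where DESeq2 1.42.0 is named; genes are called at an adjusted p under 0.05. Levels are CPM at TMM-scaled library size; per kb levels divide by the union of annotated exons. The pipeline was tested on simulated counts. Intervals of fold changes are 95%.

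The members and lists were chosen with earlier results of these data known. From each list, up to 4 called genes with the smallest p are named per comparison; others complete a count of 5 or fewer, or were singled out (IL6 to CCL20, DUSP1, MAPK8 and MAP2K7 in shAKAP2 cells, genes without the 3' UTR word), after their values were seen. Alternatives were other size factors, no filter, DESeq2, limma-voom, a replicate block, only the groups compared, and libraries left out. The 3' UTR window is 30 bases. The level of 1 blood cell marker is not reported here.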

Additional observations from a re-analysis of the deposited data

Results flagged for a closer look

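In 5 of 44 gene and group combinations looked at, 1 library lay far from the other 3 of its group; chance gives such a gap in about 1 of 20 groups. Uninduced shAKAP2 replicate 1 was lowest for MAP3K5, at 6.82 CPM against 10.4 to 10.8 CPM. The same library was highest for MAPK11, at 3.36 CPM against 1.77 to 1.90 CPM, and for MAPKAPK2, at 204 CPM against 185 to 187 CPM. For MAPK13, uninduced shAKAP2 replicate 4 was lowest, at 62.6 CPM against 74.1 to 75.7 CPM, and uninduced shScramble replicate 1 was highest, at 91.8 CPM against 68.9 to 72.6 CPM. None of these 4 genes was called in any of the 5 comparisons.

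The doxycycline effect differed between the lines for 3 members and for the targeted gene. The effect in shAKAP2 minus that in shScramble cells was 0.41 for MAP2K3, -2.91 for MAP2K6, -1.0 for MAPK14 and -5.65 for AKAP2 on the log2 scale. For the 3 members this is a description, as the contrast chose the set.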

How the results depend on the processing

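The 50 log2 fold changes of members (10 genes, 5 comparisons) were recomputed 1140 times under the alternatives: 0 changed sign with a call, 12 lost a call and 12 gained one. The losses were 7 for MAP2K3 between uninduced lines and 5 for MAP2K4 in the shAKAP2 doxycycline effect; 9 gains were in that effect, 2 in the shScramble effect and 1 in their difference. In shAKAP2 the replicate numbers did not pair the libraries: same-numbered deviations correlated at -0.0178 to 0.053, and others at -0.0468 to 0.0292. In shScramble same-numbered deviations correlated at 0.0234 to 0.4, with 2 of 4 pairs over 0.1, and others at -0.289 to 0.139. Whether same-numbered shScramble libraries shared a culture or day was not tested. With the replicate number as a block, 5, 0, 3, 4 and 1 members passed in the shAKAP2 and shScramble doxycycline effects, their difference, and the lines with and without doxycycline, and 4543, 173, 2914, 6329 and 2869 genes; 9 of the AU-rich mRNA list fell in the first.

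In the shAKAP2 doxycycline effect 7 members passed with only the groups compared (3144 genes higher) and 7 without both shScramble replicate 1 libraries. The shScramble doxycycline effect called 168 genes (87 higher, 81 lower; 1456 at an unadjusted p under 0.05). With DESeq2 it called 300 (168 higher, 132 lower) and 1 member. With only the groups compared it called 37 (14 higher, 23 lower). Without both shScramble replicate 1 libraries it called 1002 (588 higher, 414 lower) and 1 member. Leaving out each library in turn gave 101 to 409 genes (41 to 241 higher, 54 to 168 lower).

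The difference between the lines' effects called 4823 genes without both replicate 1 libraries (2256 higher, 2567 lower). Between uninduced lines, leaving out each library gave 1669 to 3941 genes (750 to 1997 higher, 919 to 1944 lower) and 0 to 1 members, no filter gave 0 members, and 2130 genes were higher without both replicate 1 libraries. Of the 5 genes most like MAP2K6, 1 stayed by Spearman's rho and 2 without those libraries. The cause was not tested. MAP2K6, MAPK11 and DUSP8 rest on few reads.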
